A study of Mus musculus with 4 samples.

Results

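*Bhlha15*, *Spdef*, *Creb3l1*, *Creb3l4* and *Xbp1* encode transcription factors of secretory cells. They were 5 of the 32285 genes listed in a single-cell RNA sequencing matrix of mouse salivary glands, and were taken by gene symbol. The series holds 4 samples of submandibular and sublingual gland cells from wild-type female C57BL/6N mice, 6 to 8 weeks old, labelled as being in physiological status, with no treated group. The labels name 2 mice and the methods of the study name 3. All 4 samples lie in 1 matrix of 15707 barcodes with 1 shared suffix and no repeated barcode, so the sample or gland of a cell is not known. The cells were treated as 1 sample without replicates, no test was run, and the ranges in brackets are exact 95% intervals that cover counting error only.

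Secretory cells load newly made proteins into the endoplasmic reticulum, pass them through the Golgi apparatus and store them in granules. XBP1 is made after the sensor IRE1 splices its mRNA under load on the endoplasmic reticulum, and is known for raising chaperones and translocation genes. BHLHA15, also called MIST1, is a basic helix-loop-helix factor of serous secretory cells that scales up their granule machinery, and SPDEF is an ETS factor known from goblet and other mucus-making cells. CREB3L1 and CREB3L4 are membrane-bound factors that are freed by proteolysis in the Golgi apparatus, and CREB3L1 is also known for collagen export in bone. In salivary glands, serous acinar cells make a watery fluid rich in protein, mucous acinar cells make mucin, and ducts alter the ions of the saliva.

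The genes lie on 5 chromosomes of GRCm38 and none overlaps another annotated gene. *Bhlha15* spans chr5:144190286-144194441 on the plus strand, *Spdef* chr17:27714352-27728955 on the minus strand, *Creb3l1* chr2:91982328-92024502 on the minus strand, *Creb3l4* chr3:90237500-90243512 on the minus strand and *Xbp1* chr11:5520659-5525893 on the plus strand. The 250 bases before the RefSeq start of 4 of the genes (GRCm38.p6) are shown 5′ to 3′ on the strand of the gene, because factors of these families are known to bind such elements. *Creb3l1* had no entry, and of the 3 entries of *Creb3l4* the one nearest its GENCODE start is shown. The motifs searched on both strands were CAGCTG (an E-box of the helix-loop-helix kind), ACGT (a core that XBP1 and CREB-type factors are known to bind) and CCACG, whose other strand reads CGTGG (the last bases of an endoplasmic reticulum stress element). Matches are in capitals.
*Bhlha15*, chr5:144190036-144190285, plus strand: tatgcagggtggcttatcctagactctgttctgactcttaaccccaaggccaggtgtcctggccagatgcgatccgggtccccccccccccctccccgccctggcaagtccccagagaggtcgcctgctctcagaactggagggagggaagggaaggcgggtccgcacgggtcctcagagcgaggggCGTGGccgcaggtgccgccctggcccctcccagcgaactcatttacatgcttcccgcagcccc
*Spdef*, chr17:27728952-27729201, minus strand: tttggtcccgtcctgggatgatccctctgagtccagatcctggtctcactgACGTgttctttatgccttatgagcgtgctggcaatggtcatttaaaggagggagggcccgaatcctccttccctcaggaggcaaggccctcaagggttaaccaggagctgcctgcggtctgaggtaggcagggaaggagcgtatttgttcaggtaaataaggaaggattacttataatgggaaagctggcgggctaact
*Creb3l4*, chr3:90243513-90243762, minus strand: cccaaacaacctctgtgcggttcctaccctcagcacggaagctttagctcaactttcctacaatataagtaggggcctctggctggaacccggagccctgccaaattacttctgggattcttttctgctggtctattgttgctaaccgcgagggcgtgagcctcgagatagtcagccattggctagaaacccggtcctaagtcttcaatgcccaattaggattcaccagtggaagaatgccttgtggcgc
*Xbp1*, chr11:5520391-5520640, plus strand: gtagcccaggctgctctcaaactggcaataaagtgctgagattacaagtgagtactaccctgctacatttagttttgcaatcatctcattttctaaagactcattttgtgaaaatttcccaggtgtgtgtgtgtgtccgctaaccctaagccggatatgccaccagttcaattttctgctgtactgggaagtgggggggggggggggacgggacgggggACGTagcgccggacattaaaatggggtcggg

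The *Bhlha15* window held CGTGG, beginning at position -63 from the start. The *Spdef* window held ACGT at -199, the *Xbp1* window held ACGT at -31, and in the *Creb3l4* window shown these letters were not found. Of 32851 windows of 250 bases, 26.9% held ACGT, 28.3% held CCACG and 13.0% held CAGCTG. The matches describe letters only, and no binding was measured.

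A unique molecular identifier (UMI) marks one captured RNA molecule. Over the matrix 125100595 UMIs were counted, and a barcode held from 1374 to 141509 of them. Clustering without the 5 genes gave 23 clusters, of which 18 were named from marker genes and formed 14 classes with 9988 cells. The acinar classes were 2250 serous acinar-like cells, 504 cells rich in *Dcpp1*, *Dcpp2* and *Dcpp3* (demilune cell and parotid proteins), and 346 mucous acinar-like cells with *Muc19*, *A2ml1*, *B3gnt6*, *Agr2* and *Aqp5*. *Muc5b*, another mucin gene on the marker list, had 0 UMIs in them. In *Dcpp*-rich cells *Aqp5*, on their list, was below its level in other cells (1.64 against 1.78 over all UMIs, as defined below). The other 4 markers of that list were above. The serous class joined clusters of 1330 and 920 cells, and *Bpifa2* and *Lman1l* of its list were lower in both. In the cluster of 920, *Lpo* (0.648 against 0.890), *Aqp5* and *Gjb1* were also lower. *Mucl2*, *Pip*, *Prol1*, *Car6* and the *Scgb* genes were higher in both. The duct classes were 1288 kallikrein-rich cells, 1045 cells with *Ascl3* and *Foxi1*, 548 cells with *Slc13a2* and *Slc9a3* and 171 basal cells. A further 232 cells were led by *Smgc*, whose transcript comes from the same locus as *Muc19*. No cluster was named as B or plasma cells. The doublet caller marked 0 barcodes, which was taken as the caller not having worked.

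Depth and composition differed between these classes, so each factor was read on more than one scale. The median was 24412 UMIs per cell in serous acinar-like, 25048 in *Dcpp*-rich, 5523 in mucous acinar-like, 3307 in *Smgc*-rich and 1872 in natural killer and innate lymphoid-like cells. A list of 74 secretory product genes (mucin-like, secretoglobin, kallikrein and similar genes) took 90.8% of the UMIs of serous acinar-like cells, 89.6% in *Dcpp*-rich and 77.6% in mucous acinar-like cells, but 29.7% in *Smgc*-rich cells and 12% in the *Ascl3* and *Foxi1* duct class. A level is therefore given as UMIs of the gene per 10000 UMIs of the class, first over all UMIs and then over UMIs outside the secretory products, here called other UMIs.

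On all UMIs, *Creb3l1* alone had its highest level in an acinar class. *Bhlha15*, *Spdef* and *Creb3l4* were highest in *Smgc*-rich cells and *Xbp1* in T cell-like cells. On other UMIs all 5 factors were highest in an acinar class, with *Bhlha15* in serous, *Xbp1* in *Dcpp*-rich and the other 3 in mucous acinar-like cells. The count was also 5 for UMIs per cell. The share of all genes that were highest in an acinar class was not counted on any of these scales. The counts therefore describe the 5 factors only and do not set them apart from other genes. The plot of levels by class gives both scales.

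**Figure D1:**
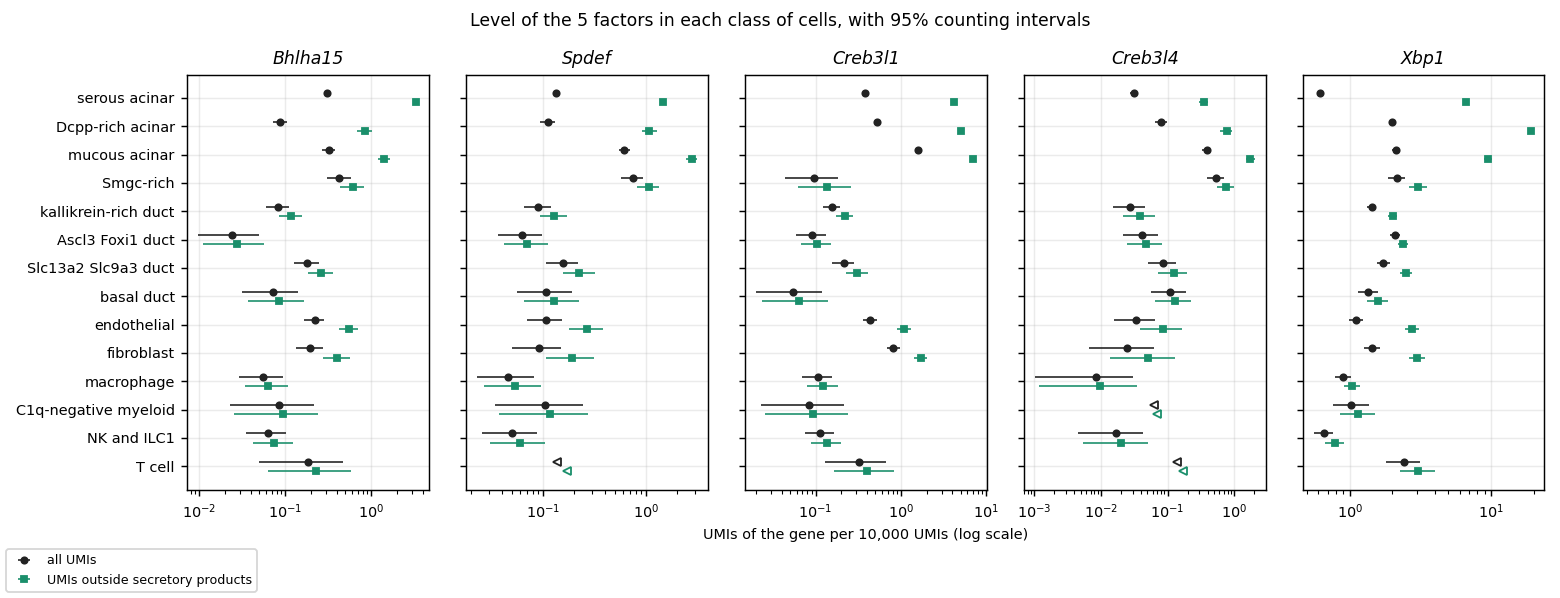
Level of each factor (UMIs per 10000 UMIs, log scale) in the 14 named classes of cells, over all UMIs (black circles) and over UMIs outside secretory products (green squares), with exact 95% Poisson intervals; class names stand without "-like", and open triangles mark the level that 3 UMIs would give where none was counted. In every panel but that of *Creb3l4* the green squares of the 3 acinar classes lie to the right of all others. In the *Spdef* panel the margin is small, with *Dcpp*-rich cells at 1.07 and *Smgc*-rich cells at 1.05. The black circles of the 3 acinar classes lie to the right of all others in no panel.

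*Bhlha15* was counted 3029 times in all, and 64.5% of its UMIs lay in serous acinar-like cells. On all UMIs its level was 0.429 (0.307 to 0.585) in *Smgc*-rich, 0.321 (0.270 to 0.379) in mucous acinar-like, 0.312 (0.298 to 0.326) in serous acinar-like and 0.0876 (0.0718 to 0.106) in *Dcpp*-rich cells. The first 3 of these could not be put in order, since the interval of each ratio to the next included equality. Over other UMIs they were separated, with 3.39 (3.24 to 3.54) in serous, 1.43 (1.20 to 1.69) in mucous and 0.845 (0.693 to 1.02) in *Dcpp*-rich cells. *Smgc*-rich cells followed at 0.611 (0.436 to 0.832), not separated from the *Dcpp*-rich cells. Among ducts the level over other UMIs was 0.260 in the *Slc13a2* and *Slc9a3* class, 0.117 in kallikrein-rich, 0.0848 in basal and 0.0276 in *Ascl3* and *Foxi1* cells, the last from 7 UMIs. All duct classes thus lay below the acinar classes. Of serous acinar-like cells 49.7% (47.6 to 51.8) held at least 1 UMI, against 1.32% (0.740 to 2.16) of natural killer and innate lymphoid-like cells, which should lack the gene and are shallower. With every cell thinned to 500 UMIs the shares were 2.0% (1.46 to 2.67) and 0.351% (0.0959 to 0.897). Serous cells did not lead in value once thinned. *Smgc*-rich cells had 2.59% (0.955 to 5.54) and mucous cells 2.31% (1.00 to 4.50), with intervals that overlapped that of serous cells. The *Slc13a2* and *Slc9a3* duct class had 1.28% and *Dcpp*-rich cells 0.397%.

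*Spdef* was counted 1789 times. On all UMIs its level was 0.740 (0.576 to 0.937) in *Smgc*-rich and 0.617 (0.545 to 0.695) in mucous acinar-like cells, and these neighbours were not separated. All other classes were lower, with 0.156 in the *Slc13a2* and *Slc9a3* duct class, 0.134 (0.125 to 0.143) in serous and 0.111 (0.0934 to 0.132) in *Dcpp*-rich cells. Over other UMIs the mucous acinar-like cells led with 2.75 (2.43 to 3.10), above serous cells at 1.46 (1.36 to 1.56) and *Dcpp*-rich cells at 1.07 (0.901 to 1.27). *Smgc*-rich cells at 1.05 (0.820 to 1.33) were not separated from the *Dcpp*-rich cells, and the next class, endothelial-like cells, had 0.267. Thinned to 500 UMIs, 5.78% (3.57 to 8.79) of mucous acinar-like cells held a *Spdef* UMI, against 0.578% (0.308 to 0.986) of serous and 0.264% (0.0544 to 0.768) of natural killer and innate lymphoid-like cells. Unthinned, the shares were 39%, 29.2% and 1.05%.

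*Creb3l1* was counted 5207 times and had the same leading class on both scales. Mucous acinar-like cells had 1.57 (1.46 to 1.69) per 10000 UMIs, followed by fibroblast-like cells with 0.812 (0.681 to 0.962), *Dcpp*-rich cells with 0.528 (0.488 to 0.571), endothelial-like cells with 0.434 and serous acinar-like cells with 0.383 (0.368 to 0.399). Over other UMIs the 3 acinar classes came first, with 7.0 (6.49 to 7.55) in mucous, 5.10 (4.71 to 5.5) in *Dcpp*-rich and 4.16 (4.0 to 4.33) in serous cells, each separated from the next. Fibroblast-like cells had 1.70 (1.42 to 2.01) and endothelial-like cells 1.09 (0.896 to 1.31). *Smgc*-rich cells held 9 UMIs in 232 cells, a level of 0.137 (0.0628 to 0.261) beside 0.135 in natural killer and innate lymphoid-like cells. The cells that led for *Spdef* and *Creb3l4* on all UMIs were thus near the bottom for *Creb3l1*. A UMI was found in 60.1% of mucous, 59.5% of *Dcpp*-rich, 54.4% of serous acinar-like and 3.45% of *Smgc*-rich cells, against 2.02% of natural killer and innate lymphoid-like cells. These shares are of cells that differ in depth. Thinned to 500 UMIs they were 8.67% (5.93 to 12.1) in mucous, 3.57% (2.13 to 5.59) in *Dcpp*-rich and 2.49% (1.89 to 3.22) in serous cells. Fibroblast-like cells had 4.07% (2.60 to 6.05), endothelial-like cells 2.41%, natural killer and innate lymphoid-like cells 0.791% and *Smgc*-rich cells 0.431%.

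*Creb3l4* had the fewest UMIs, 691, of which 24.6% lay in the 346 mucous acinar-like cells and 28.9% in the 2250 serous ones. On all UMIs the level was 0.526 (0.389 to 0.695) in *Smgc*-rich and 0.390 (0.333 to 0.453) in mucous acinar-like cells, not separated from each other. Basal duct-like cells came next with 0.109 (0.0561 to 0.190), the *Slc13a2* and *Slc9a3* duct class had 0.0851, *Dcpp*-rich cells 0.0794 (0.0644 to 0.0969) and serous cells 0.0319 (0.0277 to 0.0367). Over other UMIs mucous acinar-like cells had 1.74 (1.49 to 2.02). *Dcpp*-rich cells with 0.766 (0.621 to 0.935) and *Smgc*-rich cells with 0.748 (0.553 to 0.989) were not separated, and serous cells had 0.347 (0.301 to 0.399). At least 1 UMI was seen in 31.2% (26.4 to 36.4) of mucous, 19% (14.1 to 24.6) of *Smgc*-rich, 16.1% (13 to 19.6) of *Dcpp*-rich and 8.09% (7.0 to 9.29) of serous acinar-like cells, although mucous and *Smgc*-rich cells were the shallower ones. In natural killer and innate lymphoid-like cells the share was 0.351%. Neither T cell-like cells nor the *C1q*-negative myeloid-like cells held a UMI, where a floor of 3 UMIs would give 0.137 and 0.0631 per 10000 UMIs.

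*Xbp1* was the most counted of the factors, with 12695 UMIs, and was found in every class. Counts from the 3′ end do not tell the spliced from the unspliced mRNA. On all UMIs the levels were 2.15 (1.86 to 2.47) in *Smgc*-rich, 2.14 (2.01 to 2.29) in mucous, 2.09 (1.93 to 2.26) in *Ascl3* and *Foxi1* duct and 1.99 (1.91 to 2.07) in *Dcpp*-rich cells, and none of these was separated from its neighbour. Serous acinar-like cells had 0.615 (0.596 to 0.635), the lowest value of the 14 classes, not separated from natural killer and innate lymphoid-like cells at 0.654. Over other UMIs *Dcpp*-rich cells led with 19.2 (18.4 to 19.96), above mucous cells at 9.56 (8.96 to 10.2) and serous cells at 6.69 (6.48 to 6.90). The duct classes ranged from 1.58 in basal to 2.51 in *Slc13a2* and *Slc9a3* cells. A UMI was present in 87.1% (83.9 to 89.9) of *Dcpp*-rich cells and in 12.3% (10.4 to 14.4) of the far shallower natural killer and innate lymphoid-like cells, or 8.13% (5.90 to 10.9) and 2.11% when thinned to 500 UMIs. The *Dcpp*-rich cells did not lead once thinned. *Smgc*-rich cells had 12.5% (8.53 to 17.5), mucous cells 11.6% (8.39 to 15.4) and *Ascl3* and *Foxi1* duct cells 9.28%. The *Slc13a2* and *Slc9a3* duct class had 8.76%, fibroblast-like cells 8.32% and serous cells 4.67%.

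The *Xbp1* level of T cell-like cells, 2.42 (1.81 to 3.17) per 10000 UMIs from 53 UMIs in 97 cells, lay mostly in 3 barcodes. These held 323 to 592 UMIs of *Jchain*, the joining chain of secreted immunoglobulin, together with *Mzb1* and *Igha*, and 0 UMIs of *Cd3e*. They carried 37 of the 53 *Xbp1* UMIs, and without them the level was 0.841 (0.481 to 1.37). The matrix held 5 barcodes with at least 100 *Jchain* UMIs, the other two in a macrophage-like and an unnamed cluster. Together they had 9.20 (6.71 to 12.3) *Xbp1* UMIs per 10000, with 1 UMI of *Bhlha15*, 1 of *Creb3l1* and none of *Spdef* or *Creb3l4*. The barcodes were picked after their values were seen, and *Jchain*, *Mzb1* and *Igha* are textbook genes of plasma cells, in which XBP1 is required.

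Between mucous and serous acinar-like cells the 5 factors were all higher in value in mucous cells on all UMIs, and 4 were so by at least 2-fold, beside 80.7% of the 10054 genes with at least 20 UMIs in both classes together. None was at least 2-fold lower, beside 0.458% of genes. The median gene itself was higher by 1.46 on the log2 scale, so most of this count was shared by genes at large. The log2 ratio of mucous to serous was 3.61 (3.31 to 3.91) for *Creb3l4*, 2.20 (2.0 to 2.40) for *Spdef*, 2.04 (1.91 to 2.16) for *Creb3l1*, 1.80 (1.70 to 1.91) for *Xbp1* and 0.04 (-0.22 to 0.29) for *Bhlha15*. Over other UMIs *Creb3l4* was 5.01-fold, *Spdef* 1.89-fold, *Creb3l1* 1.68-fold and *Xbp1* 1.43-fold higher in mucous cells, while *Bhlha15* was 2.37-fold higher in serous cells, with a log2 ratio of -1.24 (-1.5 to -1.0). When the median gene was subtracted, *Creb3l4* alone was at least 2-fold higher, at 2.15 beside 9.88% of genes, and *Bhlha15* alone at least 2-fold lower, at -1.42 beside 5.49% of genes.

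Between *Dcpp*-rich and serous acinar-like cells the depths and the shares of products were close, and the median gene differed by 0.30 on the log2 scale. *Creb3l4* and *Xbp1* were at least 2-fold higher in *Dcpp*-rich cells, beside 15.3% of 10063 genes, with log2 ratios of 1.31 (0.95 to 1.67) and 1.69 (1.62 to 1.77). *Bhlha15* was 3.56-fold lower, with a log2 ratio of -1.83 (-2.13 to -1.55), beside 5.14% of genes that were at least 2-fold lower. *Creb3l1* was 1.38-fold higher, at 0.46 (0.34 to 0.59), and *Spdef* 1.20-fold lower, at -0.27 (-0.54 to -0.0036), an interval that nearly reached 0. With the median gene subtracted, *Creb3l4* and *Xbp1* were again at least 2-fold higher, beside 9.1% of genes, and *Bhlha15* at least 2-fold lower, beside 8.35%.

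Mucous and *Dcpp*-rich cells were set against each other directly. On all UMIs *Spdef*, *Creb3l4*, *Bhlha15* and *Creb3l1* were at least 2-fold higher in mucous cells, beside 60.6% of 8100 genes, and none was at least 2-fold lower, beside 0.556%. The log2 ratio of *Xbp1* was 0.11 (-0.0013 to 0.22), within the counting error of equality. Less the median gene, *Spdef* at 1.33 and *Creb3l4* at 1.15 were at least 2-fold higher, beside 7.25% of genes, and *Xbp1* at -1.03 was at least 2-fold lower, beside 4.65%.

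Fibroblast-like cells, the class next below mucous cells for *Creb3l1* on all UMIs, were compared with them too. In mucous cells *Creb3l4* at 4.01 and *Spdef* at 2.76 on the log2 scale were at least 2-fold higher than in fibroblast-like cells, beside 3.5% of 8397 genes, and none was 2-fold lower, beside 54.6%. *Creb3l1* was at 0.95 (0.68 to 1.23). Less the median gene, all 5 were at least 2-fold higher, from 1.70 to 5.12, beside 15% of genes, and 18.2% were lower.

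Depth within a class was examined by dividing each class into 4 bins by UMIs per cell. The bins of serous acinar-like cells had medians from 5685 to 53124 UMIs, and *Bhlha15* over other UMIs was 2.83, 4.18, 3.5 and 3.13 from the shallowest to the deepest. *Spdef* varied from 1.34 to 1.60 and *Creb3l1* from 3.48 to 4.47 over the same bins. On this scale the second bin was the highest for these 3, with no steady trend in depth. On all UMIs *Spdef* fell with depth at 0.197, 0.171, 0.148 and 0.110, and so did *Creb3l1* at 0.512, 0.476, 0.422 and 0.323. *Bhlha15* was then 0.417, 0.445, 0.334 and 0.253. In *Dcpp*-rich cells *Xbp1* went from 15 (12.4 to 18.1) in the shallowest to 20.1 (19 to 21.3) in the deepest bin, above every bin of the other classes shown. In mucous acinar-like cells *Spdef* was 4.41, 4.33, 2.88 and 1.86, *Creb3l4* 2.0, 2.69, 1.80 and 1.33, and *Bhlha15* 0.668, 1.05, 1.44 and 1.68. Of these 3 factors, *Spdef* alone had intervals that did not overlap between the shallowest and deepest mucous bins. Those of *Creb3l4* were 1.12 to 3.3 and 1.02 to 1.69. Those of *Bhlha15* were 0.217 to 1.56, from 5 UMIs, and 1.33 to 2.09. On all UMIs *Bhlha15* did not rise, at 0.286, 0.488, 0.371 and 0.284. *Spdef* and *Creb3l4* were again lower in the deepest than in the shallowest bin. Products took 57.2% of UMIs in the shallowest bin and 83% in the deepest. At like depth, the second bin of mucous cells (median 4396) and the first of serous cells (median 5685) differed in their share of products, 53.7% and 85.3%. Over other UMIs *Bhlha15* was 1.05 (0.625 to 1.67) and 2.83 (2.36 to 3.37) in these bins, and *Spdef* 4.33 (3.40 to 5.44) and 1.34 (1.02 to 1.72). On all UMIs *Bhlha15* was 0.488 (0.289 to 0.772) and 0.417 (0.347 to 0.496), with intervals that overlapped. *Spdef* was then 2.01 (1.58 to 2.52) and 0.197 (0.150 to 0.253).

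**Figure D2:**
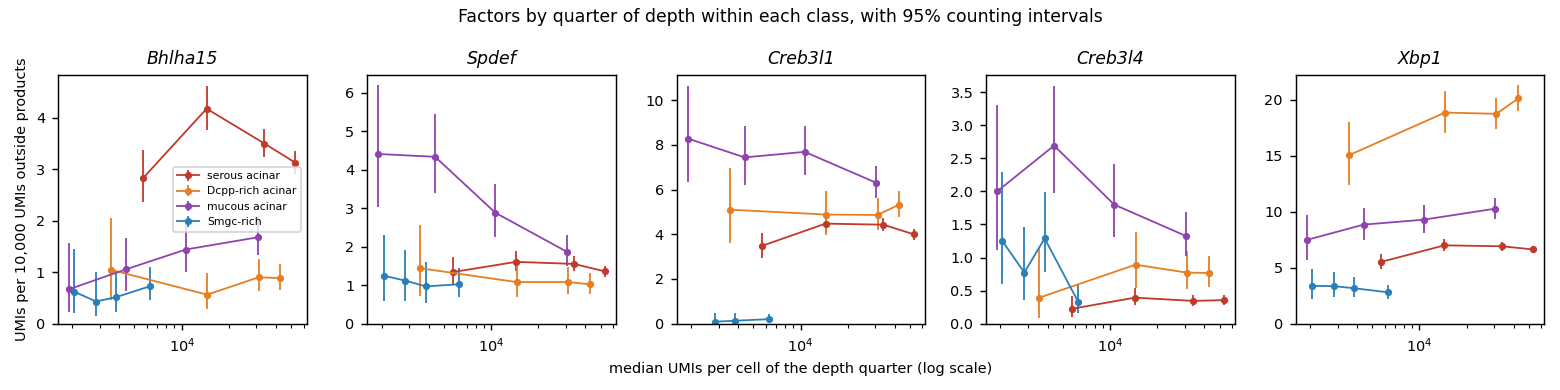
Level of each factor over UMIs outside secretory products (UMIs per 10000) in 4 bins of cells by depth, against the median UMIs per cell of the bin (log scale), for the 3 acinar classes and the *Smgc*-rich cells, with exact 95% Poisson intervals; a bin with 0 UMIs of the gene is not drawn. *Bhlha15* of serous cells stays between 2.83 and 4.18 and *Xbp1* of *Dcpp*-rich cells between 15 and 20.1, whereas *Spdef* of mucous cells goes from 4.41 to 1.86 with depth.

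The mucous acinar-like cells were mixed in what they carried. *Mucl2*, the leading product of serous cells, made up 31.3% of their UMIs and the 3 *Dcpp* genes 24.3%. They were divided into 4 bins by the summed share of these genes, a division made after the values were seen. The lowest bin, of 87 cells, had a median share of 5.32%, and the others had 49.4%, 55.2% and 62.7%. In the lowest bin *Muc19* had a level of 639 per 10000 other UMIs, against 129, 59.97 and 262 in the others. The median depth of the bins was 4116, 3786, 15728 and 22088 UMIs. The highest bin was the one rich in *Dcpp*, which took 44.4% of its UMIs.

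In those 87 cells every factor reached a higher value on all UMIs than in any of the 14 classes taken whole, as did 15.3% of 13704 genes with at least 20 UMIs in these classes. Products took 23.3% of UMIs in this bin against 77.6% in the whole class, a difference that by arithmetic raises the all-UMI levels of other genes as a group. Over other UMIs 3 factors, *Spdef*, *Creb3l1* and *Creb3l4*, were above each of the 14 classes, beside 9.81% of 13665 genes. *Spdef* was 4.03 (3.39 to 4.76), *Creb3l1* 7.32 (6.45 to 8.28), *Creb3l4* 2.12 (1.66 to 2.66), *Xbp1* 7.61 (6.72 to 8.58) and *Bhlha15* 0.629 (0.394 to 0.953) per 10000 UMIs. The interval of *Bhlha15* overlapped that of the *Smgc*-rich cells. Over other UMIs *Spdef* was 5.26 (4.43 to 6.20) against 1.45, 1.16 and 2.44 in the other bins, 3.61-fold above serous acinar-like cells. *Creb3l4* was 2.76 (2.17 to 3.46) against 1.24, 0.786 and 1.83, which was 7.95-fold above serous cells, and *Creb3l1* was 9.55 (8.41 to 10.8) against 4.69, 3.89 and 8.26. For *Xbp1* the highest bin was the *Dcpp*-rich one, with 13.1 (11.9 to 14.4) against 9.92 in the lowest. *Bhlha15* went the other way, with 0.820 (0.514 to 1.24) in the lowest bin against 1.86, 1.78 and 1.49, and was 4.13-fold below serous cells. Over other UMIs no factor rose or fell steadily with the share of *Mucl2* and *Dcpp* UMIs from bin to bin. The part of this share in the levels was not tested.

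**Figure D3:**
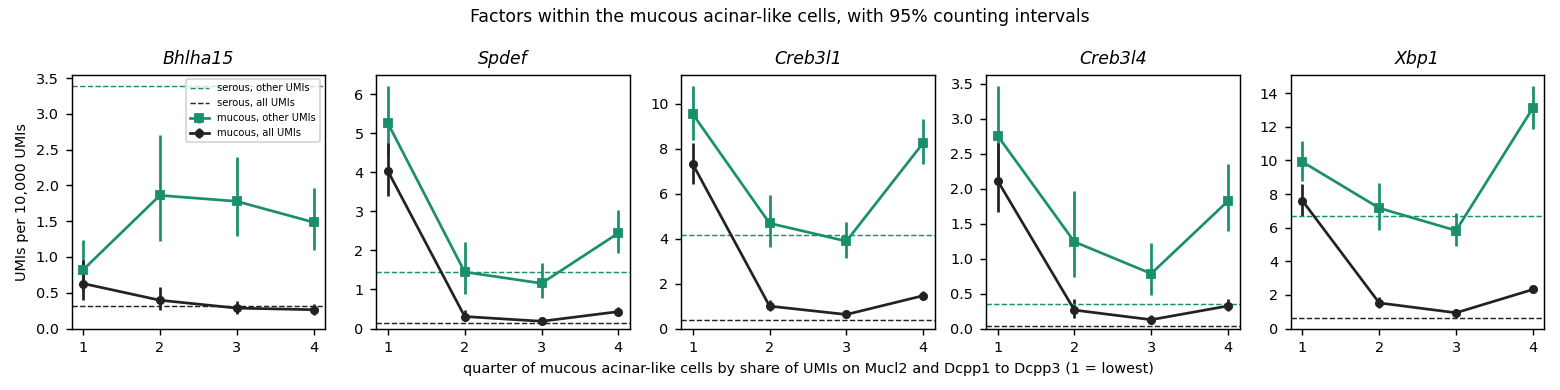
Level of each factor (UMIs per 10000) in mucous acinar-like cells divided into 4 bins by their share of UMIs on *Mucl2* and the 3 *Dcpp* genes, over all UMIs (black circles) and over UMIs outside secretory products (green squares), with exact 95% Poisson intervals; dashed lines give the serous acinar-like level on each scale. In the first bin *Spdef* stands at 5.26 and *Bhlha15* at 0.820 over other UMIs, against serous levels of 1.46 and 3.39.

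*Smgc*-rich cells were compared with the *Slc13a2* and *Slc9a3* duct class, whose share of products (31%) and median depth (2393 UMIs) were near theirs. *Creb3l4* was 6.18-fold higher in *Smgc*-rich cells, with a log2 ratio of 2.63 (1.82 to 3.49), *Spdef* 4.75-fold at 2.25 (1.63 to 2.89) and *Bhlha15* 2.39-fold at 1.26 (0.58 to 1.94), beside 4.74% of 8495 genes that were at least 2-fold higher. *Xbp1* was 1.24-fold higher, at 0.31 (0.05 to 0.56). *Creb3l1* was 2.20-fold lower, at -1.14 (-2.36 to -0.09), beside 18.3% of genes that were at least 2-fold lower. Less the median gene the first 3 stayed at least 2-fold higher, beside 8.2% of genes, and *Creb3l1* at -0.89 did not pass 2-fold lower, beside 12.2%.

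Against mucous acinar-like cells on all UMIs, none of the factors was at least 2-fold higher in *Smgc*-rich cells, beside 77.1% of 7311 genes, and *Creb3l1* was 16.3-fold lower, beside 2.59% of genes. Less the median gene all 5 were at least 2-fold lower, from -1.15 for *Creb3l4* to -5.60 for *Creb3l1*, beside 13% of genes, with 7.04% of genes higher. Against serous acinar-like cells, *Creb3l4*, *Spdef* and *Xbp1* were at least 2-fold higher on all UMIs, as were 95.6% of 9859 genes, and *Creb3l1* was at least 2-fold lower, beside 0.73%. Less the median gene, *Creb3l4* at 1.01 was the one factor at least 2-fold higher, beside 11.7% of genes, and *Creb3l1*, *Bhlha15* and *Xbp1* were at least 2-fold lower, beside 14%.

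Free RNA from broken cells enters every droplet, and it limits what a low level means. Its amount, 527 UMIs per droplet, was taken from 3 serous product genes (*Mucl2*, *Scgb2b27* and *Pip*) in the 1235 cells of the lymphoid classes, with the make-up of the whole matrix. In natural killer and innate lymphoid-like cells the counts were close to this level, at 1.03 (0.578 to 1.70) times for *Bhlha15*, 1.08 for *Creb3l1*, 1.21 for *Creb3l4* and 1.40 (0.722 to 2.44) for *Spdef*. *Xbp1* stood at 2.58 (2.19 to 3.01) times it. In macrophage-like cells *Xbp1* was at 4.16, and the other factors lay between 0.718 and 1.53 with intervals that included 1. *Bhlha15* in the *Ascl3* and *Foxi1* duct class was at 0.524 (0.211 to 1.08) and *Creb3l1* there at 1.13 (0.740 to 1.66) times the free RNA level, and both are read as background. In acinar classes the counts were 16.6 to 169 times this level, if every droplet holds the same amount of free RNA.

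**Figure D4:**
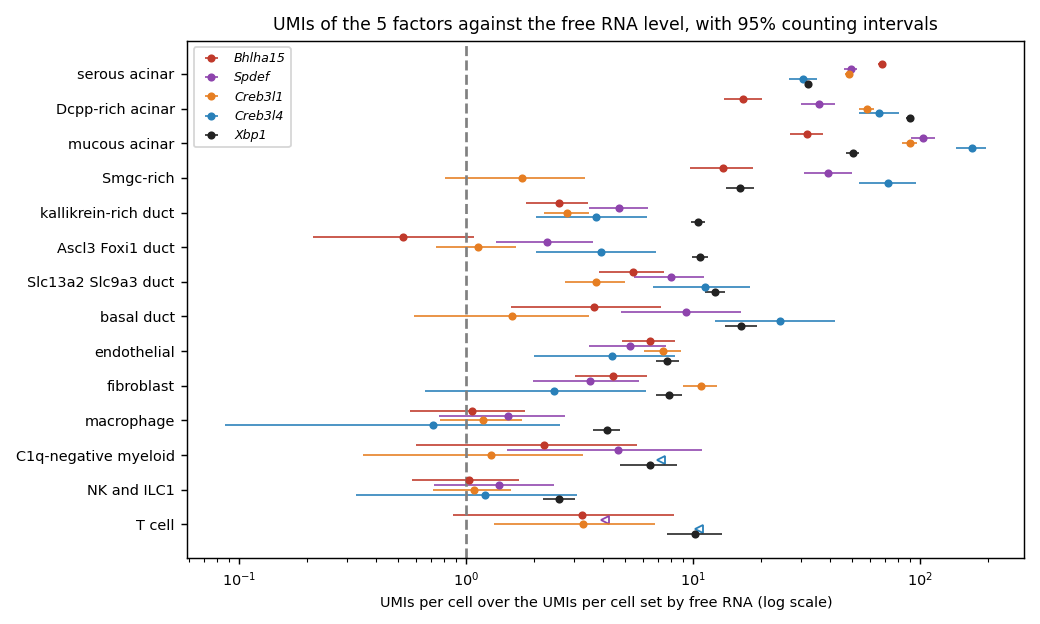
UMIs per cell of each factor divided by the UMIs per cell that the estimated free RNA would give (log scale; dashed line at 1), in the 14 named classes, with exact 95% Poisson intervals; open triangles mark the ratio that 3 UMIs would give where none was counted. With 1 amount of free RNA for all droplets, acinar classes lie above 10 for all factors (mucous cells scaled by their own *Mucl2*, not drawn, lie at 1.75 to 9.30), while natural killer and innate lymphoid-like cells lie between 1.03 and 1.40 for all but *Xbp1* at 2.58.

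Endothelial-like and fibroblast-like cells held more secretory product than lymphoid cells, with *Mucl2* at 29% and 32.7% of their UMIs. With free RNA scaled by each class's own *Mucl2*, fibroblast-like cells had 1.01 (0.692 to 1.43) times the free RNA level of *Bhlha15*, 0.803 of *Spdef* and 0.554 of *Creb3l4*. *Creb3l1* there was at 2.46 (2.06 to 2.92) and *Xbp1* at 1.79 (1.57 to 2.03). In endothelial-like cells *Creb3l1* was at 1.48 (1.22 to 1.78) and *Xbp1* at 1.55 (1.38 to 1.74), and the other 3 factors had intervals that included 1. Mucous acinar-like cells, with *Mucl2* at 31.3%, were far lower on this scale than with 1 amount per droplet, at 1.75 (1.47 to 2.06) for *Bhlha15*, 2.78 (2.61 to 2.97) for *Xbp1*, 4.97 (4.61 to 5.36) for *Creb3l1*, 5.68 (5.02 to 6.40) for *Spdef* and 9.30 (7.95 to 10.8) for *Creb3l4*. *Dcpp*-rich cells lay between 10.5 for *Bhlha15* and 56.8 for *Xbp1*. The scale does not apply to serous cells, since *Mucl2* is their own product, and how much of the *Mucl2* of mucous cells is free RNA was not measured. In *Smgc*-rich cells on the same scale *Creb3l4* was at 53.9 (39.9 to 71.3), *Spdef* at 29.3 (22.8 to 37.1), *Xbp1* at 12 and *Bhlha15* at 10.04 (7.17 to 13.7), whereas *Creb3l1* was at 1.31 (0.601 to 2.49).

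The factors were also counted together in single cells. At least 3 of the 5 factors had a UMI in 45.1% (39.8 to 50.5) of mucous, 41.4% (39.3 to 43.4) of serous and 34.5% (30.4 to 38.9) of *Dcpp*-rich cells, at the depths given above. In *Smgc*-rich cells it was 8.62% (5.35 to 13), in the duct classes 0.287% to 3.51% and in natural killer and innate lymphoid-like cells 0.0879%. All 5 factors were seen in 23 mucous, 36 serous and 3 *Dcpp*-rich cells. With every cell thinned to 500 UMIs a mucous cell held on average 0.306 of the factors, a *Smgc*-rich cell 0.216, a *Dcpp*-rich cell 0.139 and a serous cell 0.0996. Fibroblast-like cells had 0.133, the *Slc13a2* and *Slc9a3* duct class 0.126 and the *Ascl3* and *Foxi1* duct class 0.104, all above serous cells. Basal duct-like cells had 0.0877, kallikrein-rich cells 0.0862 and natural killer and innate lymphoid-like cells 0.036.

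A pair of large clusters was left unnamed because their median was under 500 genes. The first, of 2871 barcodes led by *Dcpp2*, *Bpifa2* and *Dcpp1*, had 326 genes per barcode. The second, of 2308 barcodes, had 426, and its leading genes included several mitochondrial ones beside *Prol1*, *Car6* and *Lpo*. On all UMIs the *Dcpp*-led cluster had *Xbp1* at 1.40 (1.32 to 1.48) and *Bhlha15* at 0.154 (0.129 to 0.183), and the other had 0.774 (0.726 to 0.824) and 0.296 (0.267 to 0.327). The order of both factors between these clusters was that of the *Dcpp*-rich and serous acinar-like cells.

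The other genes of these pathways were followed in lists chosen by known function, with ratios given on the log2 scale. Of 24 genes known as XBP1 targets, 17 were at least 2-fold higher in mucous than in serous cells, beside 80.7% of all genes, with a median of 1.17 beside 1.46 for all genes. Once the median gene was subtracted, 1 was at least 2-fold higher, the disulfide isomerase gene *Pdia4* at 1.05, and none lower, beside 9.88% and 5.49% of all genes, shares that apply to the mucous counts of the lists below too. *Spcs2*, a subunit of the signal peptidase, was at -0.91 and *Ssr2* of the translocon-associated complex at -0.79. In *Dcpp*-rich cells, where *Xbp1* itself was highest over other UMIs, 5 of the 24 were at least 2-fold higher than in serous cells, beside 15.3% of all genes, with a list median of 0.48 beside 0.30 for all genes. These were *Pdia4* at 1.90, *Sdf2l1*, a chaperone partner, at 1.24, the co-chaperone genes *Dnajb9* at 1.16 and *Dnajc3* at 1.16, and *Pdia6* at 1.0. After subtraction *Pdia4* at 1.60 was at least 2-fold higher, and for this comparison 9.1% of all genes were higher and 8.35% lower.

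Of 8 genes known as BHLHA15 targets, 6 had enough UMIs to compare between mucous and serous cells and 5 between *Dcpp*-rich and serous cells. Less the median gene, the gap junction gene *Gjb1* at -1.17 and the small GTPase gene *Rab26* at -1.27 were at least 2-fold lower in mucous cells, and the calcium pump gene *Atp2c2*, from 28 UMIs in mucous and 7 in serous cells, was higher at 4.31. *Gjb1* was a marker on the serous list. In *Dcpp*-rich cells the list median was -0.62 after the same subtraction, and the coat protein gene *Copz2* at -1.05 was at least 2-fold lower. *Rab26* at -1.0 fell just short of that, and *Tpd52* was at -0.62.

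Of 12 genes of the SPDEF and mucin list, 4 could be compared, and the other 8 had 0 to 5 UMIs in mucous cells. Relative to the median gene, *Muc19* at 8.67, the glycosyltransferase genes *B3gnt6* at 7.90 and *Galnt12* at 4.06, and *Agr2*, a disulfide isomerase gene of mucin-making cells, at 0.43 had higher values in mucous than in serous cells. These 4 were on the marker list that named the class. *B3gnt6* at 8.08, *Muc19* at 2.69 and *Galnt12* at 1.23 were also at least 2-fold higher in *Dcpp*-rich than in serous cells, *B3gnt6* with 292 against 4 UMIs.

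The 10 Golgi and export genes tied to CREB3L1 and its relative CREB3L2 were all at least 2-fold higher in mucous than in serous cells on all UMIs, beside 80.7% of all genes, with a median of 1.68 beside 1.46. With the median gene subtracted 1 of the 10 was, beside 9.88% of all genes, namely *Sec23a* of the COPII coat at 1.22, from 19 and 43 UMIs. The golgin gene *Golgb1* at 0.61 and the retrieval receptor gene *Kdelr3* at 0.53 came next. In *Dcpp*-rich cells none of the 10 was 2-fold apart in either direction, with a median of 0.27. The farthest, after subtraction, were *Kdelr3* at -0.63, *Gosr2* at -0.44 and *Copb2* at 0.30.

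Of 8 relatives of the factors 7 could be compared, and of 7 stress sensors and proteases 6 could. Relative to the median gene, the ETS factor gene *Elf5* was at least 2-fold lower in mucous than in serous cells at -1.05, *Ehf*, another ETS gene, was at 0.64, and *Creb3l2* was at -0.66. In *Dcpp*-rich cells *Ehf* at 1.22 and *Atf6*, another stress factor that is cut in the Golgi apparatus, at 1.04 were at least 2-fold higher, and *Creb3* was at -0.55. None of the 6 sensors and proteases was 2-fold apart in either comparison after this subtraction. *Ddit3* at 0.83, *Mbtps1*, the protease known to cut CREB3-type factors, at 0.57 and *Mbtps2* at -0.83 from 7 UMIs were the farthest in mucous cells. In *Dcpp*-rich cells these were *Mbtps1* at -0.85, *Mbtps2* at -0.54 and *Ern1*, which encodes IRE1, at -0.48.

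The genes most like each factor were found by Pearson correlation of log2 levels over the 22 clusters with at least 50 cells, given as a description, since clusters of 1 matrix share libraries, depth and free RNA. *Bhlha15* was most like *Pip* (0.92), *Aqp5* (0.88) and *Wfdc12* (0.84). *Spdef* was most like *AI463229* (0.84), *Creb3l4* (0.82) and *Aass* (0.81). *Creb3l1* was most like *Pigr* (0.81), the receptor that carries immunoglobulin into saliva, *Gjb1* (0.81) and the chemokine gene *Ccl28* (0.80). *Creb3l4* was most like *Serpinb11* (0.89), *Slc45a3* (0.89) and *Hist2h3c2* (0.88), and *Xbp1* was most like *Txndc5* (0.89), a disulfide isomerase gene, *Smpdl3a* (0.73) and *Lrrc59* (0.71). Among the factors themselves *Spdef* and *Creb3l4* were the closest pair, and *Bhlha15* and *Xbp1* were the least alike at -0.05.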

How the data were processed

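Single-cell RNA was measured in 4 samples with 10x Genomics 3' libraries. The authors deposited 1 matrix of UMI counts without normalization, and the submitters' processing notes name Cell Ranger 6.0.1, Seurat 4.1.1 and mm10. All 15707 barcodes were kept (median 2608 UMIs), with no doublets removed. Clusters were made in Seurat 5.3.0 (R 4.3.3) after log-normalization (scale factor 10000), on 1995 of 2000 variable genes, the 5 factors having been removed, with 20 principal components and a resolution of 0.5. A class needed 3 markers, each above its level in other cells and in at least 25% of cells, a median of 500 genes, and fewer than 5 markers of another kind of cell, and took the list with the highest mean log2 ratio to the other cells. The members and gene lists were chosen with earlier results of these data known.

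Levels are summed UMIs per 10000, with exact Poisson intervals, exact binomial intervals for shares and exact conditional binomial intervals for ratios, all 95% and for counting error only. Ratios across all genes used a pseudocount of 0.5 and genes with at least 20 UMIs in both classes together. Genes named are the 5 factors, list genes at least 2-fold apart or with the 3 largest ratios of their list after subtraction of the median gene, and for each factor the 3 genes most alike (at least 200 UMIs and a median level of at least that of the factor divided by 4, pseudocount 0.01). No test was possible with 1 matrix. Python 3.11.15, numpy 2.4.6, scipy 1.17.1, pandas 2.3.3, scanpy 1.11.5 (Scrublet) and matplotlib 3.10.9 were used, and the steps were tested on simulated data. Positions are from GENCODE M21.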

Additional observations from a re-analysis of the deposited data

How the results depend on the processing

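There were 12 alternatives chosen at the start and 5 added after seeing the data. The count of factors with a higher value in mucous than in serous cells (5 of 5) was 4 or 5 under the alternatives, and that for *Dcpp*-rich against serous cells (3 of 5) was 3 or 4. The count of factors whose highest class is acinar, 1 on all UMIs, was 5 on UMIs outside secretory products, 5 per cell, 5 for the mean log-normalized value, 3 with cells thinned to 500 UMIs, 2 without the highest Scrublet scores, 5 with 10 principal components (no *Smgc*-rich class was named there), 2 with 30 principal components, 0 with free RNA scaled by *Mucl2* outside serous and mucous cells, and 5 with the 87 mucous cells lowest in *Mucl2* and *Dcpp*. The last alternative and the scaled free RNA were among those added, and the cause of these changes was not tested. The matching share over all genes was not counted under any of them. At a resolution of 0.3 no *Dcpp*-rich class was named, so 2 of the 3 counts could not be given. *Spdef* in *Dcpp*-rich against serous cells turned from -0.27 to 0.78 on the log2 scale with thinning, from 5 and 13 cells with a UMI. Of 165 single values 114 stayed within the counting interval of the log2 ratio given, 50 moved beyond it and 1, given above, turned sign from an interval without 0. Those for the mean log-normalized value were differences of mean natural-log values, not log2 ratios. They were held against the same log2 intervals, so their moves also reflect the change of unit. The ratio of *Bhlha15* in mucous to serous cells, 0.04 with an interval that included 0, turned negative under 5 alternatives. It was -1.24 over other UMIs, -1.10 per cell and -1.42 less the median gene. It was near 0 with the cell filter and, as a difference of mean natural-log values, for the mean log-normalized value. No paired analysis was possible because the cells cannot be assigned to samples, and for the same reason no sample could be left out. Counts were few for *Creb3l4*, with 691 UMIs in all.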
